A study of Mus musculus with 8 samples.

Results

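The Wnt ligands, their receptors and their secreted inhibitors were described in the upper neocortex (layers II-IV) of 8 mouse pups, taken at postnatal day 5. All genes with a probe set naming a single gene were taken whose symbol was Wnt, Fzd, Dkk or Sfrp followed by a digit, or was Lrp5, Lrp6, Frzb, Wif1, Ror1, Ror2 or Ryk. This gave 45 of the 19938 genes measured, namely 19 Wnt ligands, 10 Frizzled receptors, 5 co-receptors (Lrp5, Lrp6, Ror1, Ror2 and Ryk), 4 Dkk genes, 6 genes of Wnt-binding inhibitors (4 Sfrp genes, Frzb and Wif1) and Fzd10os. Fzd10os is annotated as a non-coding RNA beside Fzd10 and encodes no receptor. Wnt4 had 2 probe sets, of which the one with the higher mean over the arrays was used, and each other gene had 1.

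The study compared 4 pups labelled Bcl6 mutant (Bcl6 flox/flox with Cre on 1 allele of Nex) with 4 labelled Bcl6 control (Bcl6 flox/flox, both Nex alleles wild type), with 1 array of total RNA per pup. Bcl6 is a zinc-finger transcriptional repressor, and both groups carry its floxed alleles. Nex is another name of Neurod6, which is active in postmitotic excitatory neurons of the cortex, so that glia, interneurons and vessels of the microdissected layers are outside the reach of this Cre. The mutants alone carry Cre and only 1 intact copy of Nex. Per the series title, the study asked about Bcl6 and Bcl11a in the loss of projection neurons as the cortex develops.

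Wnt proteins are lipid-modified secreted ligands that bind Frizzled receptors. Together with Lrp5 or Lrp6 the bound Frizzled recruits Dishevelled, which halts the destruction of beta-catenin, so that beta-catenin enters the nucleus and activates genes with Tcf and Lef factors. Ror and Ryk proteins bind some of the same ligands and act on cell polarity and axon growth. Sfrp proteins, Frzb and Wif1 bind the ligands outside the cell, while Dkk1, Dkk2 and Dkk4 bind Lrp5 and Lrp6. In the cortex the pathway is known first from patterning and progenitor growth, and later from dendrites, axon guidance and synapses. In cortical progenitors of the mouse, Bcl6 is known to promote neurogenesis by repressing genes of the Notch and Wnt pathways.

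Facts of the 8 arrays that bear on these genes come first. The deposited log2 values had medians of 4.94 to 5.01 per array, correlations between arrays of 0.990 to 0.994, and no detection calls. The brightness of different probe sets depends on their probes, so levels were compared between arrays and not between genes. The Bcl6 probe set read 6.61, 6.76, 6.96 and 6.78 in mutant replicates 1 to 4, against 6.55, 6.58, 6.25 and 6.23 in control replicates 1 to 4, and Neurod6 read 8.69 to 9.07 in mutants and 9.15 to 9.41 in controls. Bcl6 was thus higher, not lower, on every array labelled mutant than on any control array (0.37 ± 0.10, SE, limma adjusted p = 0.655). The position of its probes relative to the deletion was not analysed here, so that this probe set gives no check of the genotype labels, and every direction below rests on the labels. In mutant replicates 1 and 4 Xist was at 9.78 and 9.76, and the other 6 arrays gave 2.64 to 3.41. High Xist was thus seen on mutant arrays only, so that whatever goes with it is partly confounded with the genotype. Alternatives without those arrays, or with the level of Y-linked genes as a covariate, are given below. Markers of excitatory neurons had a mean level of 9.13 to 9.27 per array in mutants and 9.09 to 9.36 in controls. Their 6 measured genes include Neurod6, whose locus carries the Cre in mutants. Of the 6, Neurod6 (-0.39 ± 0.09, SE, limma adjusted p = 0.535) and Tbr1 (0.17 ± 0.07, adjusted p = 0.988) had an unadjusted p under 0.05. Markers of layers II-III had a mean level of 8.66 to 8.78 in mutants and 8.50 to 8.87 in controls. Layer IV markers had a mean level of 7.06 to 7.20 in mutants and 7.02 to 7.23 in controls, and 2 of 11 had an unadjusted p under 0.05, Cdh8 (-0.63 ± 0.08, SE, n = 4 per group; limma adjusted p = 0.022) and Zbtb16 (-0.26 ± 0.06, adjusted p = 0.637). Microglia markers had a mean level of 4.42 to 4.51 in mutants and 4.47 to 4.67 in controls, with 2 of 11 positive and a median difference of -0.11. The part of either list in the values below was not tested.

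No gene of the group passed the threshold between the genotypes. With limma over all 19938 genes (Benjamini-Hochberg, threshold 0.05), 0 of the 45 were called, 4 had an unadjusted p under 0.05 (3 higher and 1 lower in mutants), and the smallest adjusted p was 0.815. Over all genes 0.0652% were called (0.0502% higher and 0.015% lower in mutants) and 4.91% had an unadjusted p under 0.05 (1.64% higher and 3.28% lower), against 8.89% of the 45. Differences, here always mutant minus control on the log2 scale, ran from -0.21 in Dkk1 to 0.42 in Frzb. Their median was 0.0068, beside -0.0096 over all genes, with 23 positive and 22 negative, and 44.6% of all genes positive. After quantile normalization 28 of the 45 were positive and the median was 0.024, beside -0.00011 over all genes, where 480 genes had a positive and 462 a negative difference with an unadjusted p under 0.05, against 326 positive and 653 negative as deposited.

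The 95% intervals give the sizes of difference that fit these arrays. For 44 of the 45 genes the whole interval lay within a 1.5-fold change either way, as for 99.3% of all genes, and Frzb was the exception. The median half-width was 0.17. Of the 45 genes, 31 had a mean level below the median over all genes (5.55), where a probe set can sit close to its background and an interval describes the signal more than the transcript. The other 14 genes, which passed that filter, had a median difference of 0.069, with 10 positive. The 31 below it had a median of -0.015, with 13 positive. After quantile normalization 10 of the 14 and 18 of the 31 were positive. The share of positive differences among all genes of either level was not computed, so that these counts have no background beside them. In tissue of mixed cells, fewer cells of a type and less RNA per cell cannot be told apart in any of these values.

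**Figure D1:**
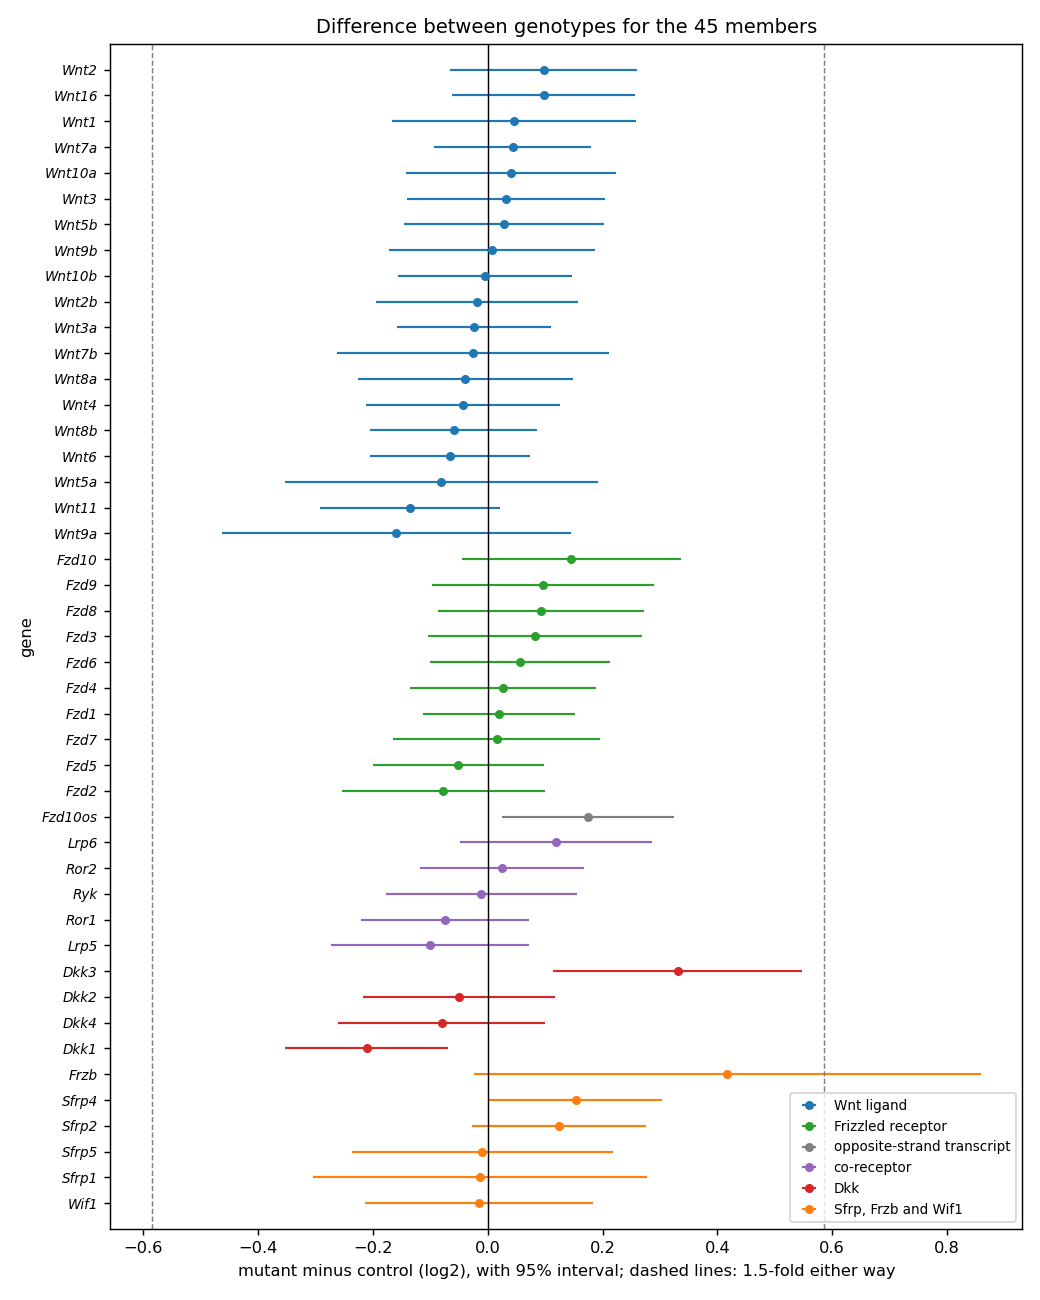
Mutant minus control difference in log2 (x axis) for the 45 genes (y axis, grouped by family), each point a gene with its 95% interval, and dashed lines at a 1.5-fold change. The intervals of Dkk3, Fzd10os and Sfrp4 lie above 0, that of Dkk1 below 0, and only that of Frzb crosses a dashed line.

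No difference of the 19 Wnt ligand genes passed the threshold. In limma 0 of the 19 had an unadjusted p under 0.05, and differences lay between -0.16 (Wnt9a) and 0.10 (Wnt2 and Wnt16). Their median was -0.019, with 8 positive and 11 negative. Quantile normalization gave a median of 0.0091 and cyclic loess 0.0066, so that its sign depends on the scaling. The ligand of smallest p was Wnt11, which acts mainly outside the beta-catenin branch. Wnt11 read 4.22, 4.24, 4.41 and 4.42 in mutant replicates 1 to 4, against 4.55, 4.40, 4.42 and 4.45 in control replicates 1 to 4. Mutant replicates 1 and 2 were the low arrays and the groups overlapped. The difference was -0.14 ± 0.07 (SE, n = 4 per group), with a 95% interval of -0.29 to 0.02. Wnt16 read 4.91, 5.10, 4.82 and 4.86 in mutants and 4.79, 4.83, 4.79 and 4.88 in controls, with mutant replicate 2 the high array. Its difference was 0.10 ± 0.07.

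Among the other ligands are those best known from the cortex. Wnt7a and Wnt7b, made by neural cells and needed for the growth of brain vessels, differed by 0.04 ± 0.06 (SE, n = 4 per group) and -0.03 ± 0.11. Wnt3a, Wnt2b and Wnt8b, signals of the cortical hem in the embryo, differed by -0.02 ± 0.06, -0.02 ± 0.08 and -0.06 ± 0.07. The intervals of all 5 included 0, and the widest, of Wnt7b, ran from -0.26 to 0.21. Wnt4 differed by -0.04 ± 0.08, and its other probe set by -0.05 ± 0.07. Wnt5a, a ligand of Ror2 and Ryk in axon guidance, varied more between the mutant pups. It read 4.97, 4.32, 4.68 and 4.86 in mutant replicates 1 to 4, against 4.88, 4.95, 4.68 and 4.63 in control replicates 1 to 4, a difference of -0.08 ± 0.13. The mutant arrays with high Xist, replicates 1 and 4, were its higher mutant values, and without mutant replicate 2 the difference was 0.05 ± 0.10. Without both arrays with high Xist the Wnt5a difference was -0.29 ± 0.12 (limma adjusted p = 0.998, unadjusted p = 0.044), and with the level of Y-linked genes as a covariate -0.28 ± 0.12 (adjusted p = 0.999).

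Several Wnt genes lie next to each other in the genome, in the order of protein-coding genes of GRCm38.p6. On chromosome 15 Wnt10b and Wnt1 differed by -0.0044 ± 0.07 (SE) and 0.05 ± 0.10. On chromosome 11 Wnt3a and Wnt9a differed by -0.02 ± 0.06 and -0.16 ± 0.14, and Wnt9b and Wnt3 by 0.0068 ± 0.08 and 0.03 ± 0.08. On chromosome 1 Wnt6 and Wnt10a differed by -0.07 ± 0.06 and 0.04 ± 0.08. No gene of these 4 pairs differed from 0 beyond its interval.

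Promoter windows were read for short letter patterns chosen for Bcl6 and for the Tcf and Lef factors. The shares below hold for these exact letters, and other letters that the factors may bind were not searched. The windows (250 bases before to 50 after each annotated start, RefSeq, GRCm38.p6) covered 30 of the 45 genes. The letters TTCCTNGAA, for BCL6, were searched on both strands and found in 1 of the 30 genes (3.33%), Wnt5b, and in 1.86% of the 27025 genes with a window. The letters CTTTGNT, for Tcf and Lef, were in 7 of the 30 genes (23.3%; Wnt1, Wnt3, Wnt5b, Wnt9b, Wnt11, Fzd7 and Dkk1) and in 20.9% of all genes. These shares are descriptions of the windows and not of binding. Wnt5b, a ligand of the branch without beta-catenin, is annotated with 3 starts. Its second window is shown because it holds the BCL6 letters, in capitals, on the minus strand at chr6:119467162-119467461.
Wnt5b: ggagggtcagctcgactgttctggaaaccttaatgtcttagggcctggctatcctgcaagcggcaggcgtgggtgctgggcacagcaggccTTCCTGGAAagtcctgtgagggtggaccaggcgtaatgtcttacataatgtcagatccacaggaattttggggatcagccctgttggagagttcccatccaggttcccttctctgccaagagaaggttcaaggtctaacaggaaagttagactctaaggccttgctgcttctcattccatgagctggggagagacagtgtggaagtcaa
Wnt5b itself read 5.47 to 5.73 in mutants and 5.36 to 5.61 in controls. The difference was 0.03 ± 0.08 (SE), with a 95% interval of -0.15 to 0.20.

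Frizzled receptors showed small differences of mostly positive sign. Of the 10 genes 0 had an unadjusted p under 0.05 in limma, 8 differences were positive and 2 negative, and the median was 0.041. The split was again 8 to 2 after quantile normalization, median centring and cyclic loess, where 9960, 10188 and 10072 of the 19938 genes were positive, against 8891 as deposited. Fzd1, Fzd4 and Fzd7, among the 8 positive ones, turned sign in at least 1 other alternative. Differences ran from -0.08 in Fzd2 to 0.15 in Fzd10. Fzd10 read 5.29, 5.31, 5.38 and 5.26 in mutant replicates 1 to 4, against 5.20, 4.89, 5.27 and 5.30 in control replicates 1 to 4. The low array was control replicate 2, and the difference was 0.15 ± 0.09 (SE, n = 4 per group) with it and 0.05 ± 0.07 without it. Fzd8 read 5.90, 5.80, 5.88 and 5.84 in mutants and 6.01, 5.68, 5.64 and 5.72 in controls, a difference of 0.09 ± 0.08. Control replicate 1 was higher than every mutant array in Fzd8, and without it the difference was 0.17 ± 0.07 (limma adjusted p = 1.000). Fzd3, which guides the main axon tracts of the forebrain, differed by 0.08 ± 0.09 (95% interval -0.10 to 0.27). Fzd4, a receptor of brain endothelium, differed by 0.03 ± 0.07, beside endothelial markers with a mean level of 6.15 to 6.36 per array in mutants and 6.20 to 6.31 in controls.

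Fzd10os, the transcript beside Fzd10, was higher on all mutant arrays than on any control array. It read 4.52, 4.37, 4.50 and 4.29 in mutant replicates 1 to 4, against 4.28, 4.24, 4.23 and 4.23 in control replicates 1 to 4. The gap between the groups was 0.016, and the spread was 0.11 (SD) in mutants and 0.022 in controls. Groups did not overlap in 3 of the 45 genes (6.67%), namely Fzd10os, Dkk3 and Dkk1, and in 2.75% of all genes (0.963% higher and 1.79% lower in mutants). The difference of Fzd10os was 0.17 ± 0.07 (SE, n = 4 per group), with a limma adjusted p of 0.988. Both Fzd10 and Fzd10os lie below the median level of all genes. Whether the probe set of either also takes up RNA of the other was not tested.

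The co-receptors gave 2 positive and 3 negative differences, none at an unadjusted p under 0.05 in limma. Lrp6, the main partner of Frizzled in beta-catenin signalling, read 7.40, 7.36, 7.25 and 7.28 in mutant replicates 1 to 4, against 7.30, 7.30, 7.19 and 7.02 in control replicates 1 to 4. Control replicate 4 was the low array, and the difference was 0.12 ± 0.08 (SE, n = 4 per group) with it and 0.06 without it. Lrp5, which serves the same role, read 5.74, 5.47, 5.75 and 5.70 in mutants and 5.88, 5.80, 5.67 and 5.70 in controls. Its difference was -0.10 ± 0.08, so that the estimates of Lrp6 and Lrp5 had opposite signs and each interval included 0. Ryk, through which Wnt5a repels cortical axons, differed by -0.01 ± 0.08. Ror1 and Ror2, tyrosine-kinase-like receptors of Wnt5a, differed by -0.07 ± 0.07 and 0.02 ± 0.07.

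The Dkk genes held the smallest p of the group, in opposite directions. Dkk3 is a diverged member that is not known to bind Lrp5 or Lrp6 as the other members do. Dkk3 read 7.65, 7.59, 7.49 and 7.68 in mutant replicates 1 to 4, against 7.46, 7.38, 6.96 and 7.27 in control replicates 1 to 4. Every mutant array lay above every control array, by at least 0.025, and control replicate 3 was the lowest of the 8. The mean was 7.60 ± 0.08 in mutants and 7.27 ± 0.22 in controls (SD, n = 4 each). The difference of 0.33 ± 0.10 (SE), or 1.26-fold with a 95% interval of 1.08 to 1.46, had a limma adjusted p of 0.815. Without control replicate 3 it was 0.23 ± 0.08. Markers of layer V, read beside it because the capture could take up deeper cells, had a mean level of 6.07 to 6.16 per array in mutants and 6.06 to 6.17 in controls. An unadjusted p under 0.05 was met by 1 of 13 upward and 4 downward, beside 4.91% of all genes. The upward one was Ldb2 (0.80 ± 0.15, limma adjusted p = 0.197). Those downward were Lypd1 (-0.39), Hsd11b1 (-0.35), Slc17a8 (-0.32) and Crym (-0.22), and opposite changes can cancel in a mean level. The part of these markers in the Dkk3 value was not tested.

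Dkk1, the best known Dkk inhibitor of Lrp5 and Lrp6 and a target of beta-catenin itself, was lower on every mutant array. It read 4.32, 4.35, 4.29 and 4.32 in mutant replicates 1 to 4, against 4.57, 4.64, 4.47 and 4.45 in control replicates 1 to 4. The gap between the groups was 0.10, and the mutant values were close together (SD 0.024, against 0.089 in controls). The difference was -0.21 ± 0.07 (SE, n = 4 per group), with a 95% interval of -0.35 to -0.07 and a limma adjusted p of 0.827. Its level lies below the median of all genes, and the filter at that level removes it. Dkk2 and Dkk4, which also bind Lrp5 and Lrp6, differed by -0.05 ± 0.08 and -0.08 ± 0.08. Dkk3 and Fzd10os, whose groups also did not overlap, had no promoter window, so that the letters could not be searched there. The promoter window of Dkk1 is shown because it carries the Tcf and Lef letters CTTTGTT (capitals) in a gene whose groups did not overlap. It lies on the minus strand at chr19:30549447-30549746 of GRCm38.p6, and the match begins 98 bases before the annotated start.
Dkk1: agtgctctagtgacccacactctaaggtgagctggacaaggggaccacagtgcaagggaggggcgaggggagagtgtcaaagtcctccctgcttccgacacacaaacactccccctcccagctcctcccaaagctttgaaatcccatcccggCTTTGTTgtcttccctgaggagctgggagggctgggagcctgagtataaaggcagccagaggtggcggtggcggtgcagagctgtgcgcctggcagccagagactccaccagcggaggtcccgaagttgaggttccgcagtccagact

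The Wnt-binding inhibitors gave 1 gene at an unadjusted p under 0.05 and the widest spread of all. Sfrp4 read 2.74, 2.79, 2.79 and 2.72 in mutant replicates 1 to 4, against 2.55, 2.50, 2.74 and 2.65 in control replicates 1 to 4. Control replicate 3 lay within the mutant values. The difference was 0.15 ± 0.07 (SE, n = 4 per group; limma adjusted p = 1.000), and its level is below the 25th percentile of all genes (3.96). Frzb, also called Sfrp3, read 8.06, 7.76, 7.96 and 8.21 in mutants, against 7.06, 7.20, 7.90 and 8.15 in controls. Control replicates 1 and 2 were low while control replicates 3 and 4 lay among the mutant values. The control SD of Frzb was 0.53, against 0.19 in mutants. Its difference of 0.42 ± 0.20 had a 95% interval of -0.02 to 0.86, and it was 0.25 ± 0.19 without control replicate 1 and 0.61 ± 0.17 without control replicate 4 (limma adjusted p = 1.000 and 0.824).

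Sfrp1 and Sfrp2, which are made by cortical progenitors in the embryo, differed by -0.01 ± 0.13 and 0.12 ± 0.07 (SE, n = 4 per group). Sfrp5 and Wif1 differed by -0.0093 ± 0.10 and -0.02 ± 0.09. Fibroblasts of the meninges and vessels are a known source of several Wnt inhibitors. Markers of mural, fibroblast and meningeal cells had a mean level of 5.14 to 5.29 per array in mutants and 5.20 to 5.41 in controls, with 6 of 15 positive, and astrocyte markers 7.24 to 7.42 in mutants and 7.28 to 7.37 in controls, with 11 of 15 positive. Of these 30 markers, Foxc1 (positive) and Dcn (negative) had an unadjusted p under 0.05. Their part in the Frzb and Sfrp values was not tested.

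**Figure D2:**
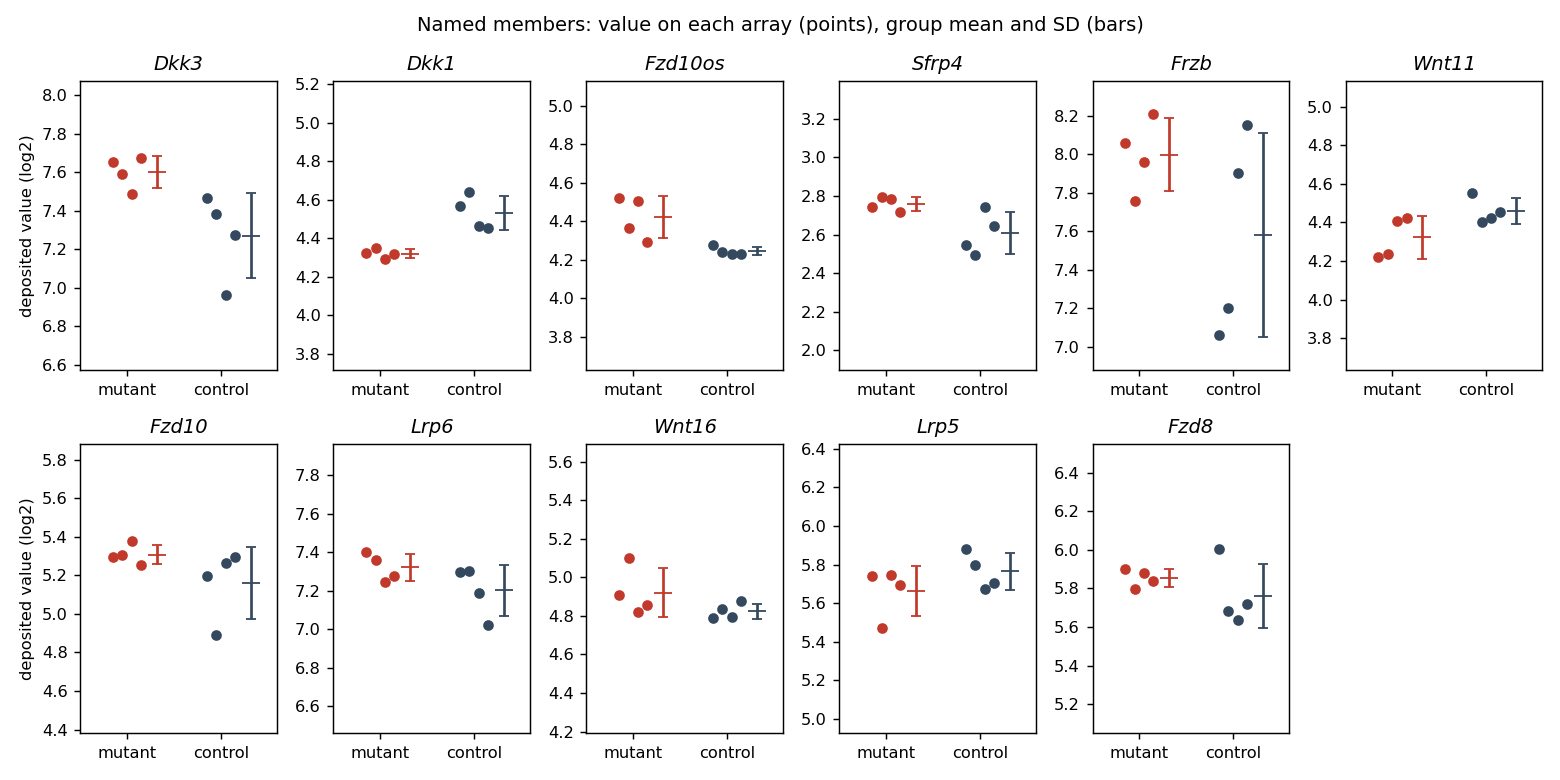
Deposited log2 values (y axis, the same span of 1.5 in each panel) of the 11 named genes in 4 mutant and 4 control arrays (points), with the group mean and SD (bars). Groups are apart in Dkk3, Dkk1 and Fzd10os, and the Frzb controls spread from 7.06 to 8.15.

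The rest of the pathway was read from 8 lists by role, 114 genes measured of 115 listed and none of them among the 45. In limma 1 of the 114 was called, Tpbg, beside 0.0652% of all genes. The lists were chosen with that call known, so that its presence among the 114 is no result about the pathway. An unadjusted p under 0.05 was found for 5 (2 higher, 3 lower), or 4.39%, beside 4.91% of all genes. A share this close to that of all genes is no result about the pathway, and the 4 genes other than Tpbg are given below as values. The median over the 114 was -0.0043. Tpbg is a membrane glycoprotein with leucine-rich repeats that in zebrafish inhibits beta-catenin signalling at the level of Lrp6. It read 7.63, 7.56, 7.80 and 7.89 in mutant replicates 1 to 4, against 6.92, 7.28, 7.00 and 7.09 in control replicates 1 to 4. All mutant arrays lay above all control arrays, and the difference was 0.65 ± 0.09 (SE, n = 4 per group; limma adjusted p = 0.032). The call depends on single arrays and on the model. It was lost when any 1 array other than control replicate 2 was left out (limma adjusted p from 0.063 to 0.161). Without control replicate 2 the adjusted p was 0.032. Of all 19938 genes, 13 were called with all 8 arrays and 13 without control replicate 2, against 3 to 5 without any other 1 array. The Tpbg call was also lost with the replicate number as a block (adjusted p = 0.125) and with the Y-linked level as a covariate (0.384). Those fits called 5 and 4 of all genes, so that calls over all genes fell in the same fits. The difference stayed between 0.59 and 0.72 over 22 alternatives.

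Tpbg has 2 annotated starts. Both windows are shown because it is the only gene of the lists, chosen with its call known, that passed the threshold. They lie on the plus strand of GRCm38.p6 at chr9:85842130-85842429 and chr9:85842602-85842901. Neither holds the BCL6 letters TTCCTNGAA. The second holds the letters searched for Tcf and Lef, CTTTGNT, as CTTTGGT on the other strand (capitals).
Tpbg start 1: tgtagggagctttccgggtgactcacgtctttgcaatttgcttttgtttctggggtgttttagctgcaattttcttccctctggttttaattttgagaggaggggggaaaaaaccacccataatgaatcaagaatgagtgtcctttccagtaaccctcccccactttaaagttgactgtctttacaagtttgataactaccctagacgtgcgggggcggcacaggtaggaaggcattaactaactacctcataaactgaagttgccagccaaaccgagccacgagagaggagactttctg
Tpbg start 2: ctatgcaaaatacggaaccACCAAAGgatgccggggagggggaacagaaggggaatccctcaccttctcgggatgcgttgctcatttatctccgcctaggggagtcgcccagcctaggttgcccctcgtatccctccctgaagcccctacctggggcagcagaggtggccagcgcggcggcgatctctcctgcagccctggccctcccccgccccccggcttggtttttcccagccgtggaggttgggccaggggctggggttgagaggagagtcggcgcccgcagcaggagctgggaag

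Other secreted modulators held 3 of the other 4 pathway genes at an unadjusted p under 0.05. Rspo3, a secreted protein that strengthens Wnt signalling by sparing Frizzled from turnover, read 5.82, 5.38, 5.60 and 5.74 in mutant replicates 1 to 4, against 5.71, 5.86, 6.10 and 6.44 in control replicates 1 to 4. Control replicate 4 was the high array, and the groups overlapped (-0.39 ± 0.14, SE, n = 4 per group; limma adjusted p = 0.932), with -0.26 ± 0.12 without that array. Draxin, a secreted axon repellent, read 7.43 to 7.70 in mutants and 7.26 to 7.46 in controls (0.19 ± 0.08, adjusted p = 0.988). Sostdc1, a secreted antagonist of BMP and Wnt signals, read 3.79 to 4.09 in mutants and 4.10 to 4.16 in controls (-0.16 ± 0.07, adjusted p = 1.000), and its groups were 0.0027 apart. Tle2, a corepressor that binds Tcf and Lef factors, was the fourth. It read 4.55 to 4.75 in mutants and 4.81 to 5.03 in controls (-0.20 ± 0.07, adjusted p = 0.932), and the groups did not overlap.

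In 6 of the 8 roles no gene had an unadjusted p under 0.05, and the 5 genes that did were secreted or membrane modulators and the nuclear factor Tle2. Among 23 genes of the destruction complex and beta-catenin turnover, the smallest p belonged to Frat1, which keeps Gsk3 from beta-catenin (0.17 ± 0.09, SE, n = 4 per group). Among 11 genes of Dishevelled and its regulators it belonged to Cxxc4, which binds Dishevelled (0.16 ± 0.08). The 18 targets of beta-catenin had a median of -0.045, with 7 positive and 11 negative, and differences from -0.13 (Nkd1) to 0.10. After quantile normalization that median was -0.026. Rnf43, a ubiquitin ligase that removes Frizzled (-0.16 ± 0.10), Notum, which strips the lipid from Wnt ligands (-0.10 ± 0.09), and Vangl1, of planar cell polarity (0.15 ± 0.07), had the smallest p of their roles. Each of these intervals included 0.

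**Figure D3:**
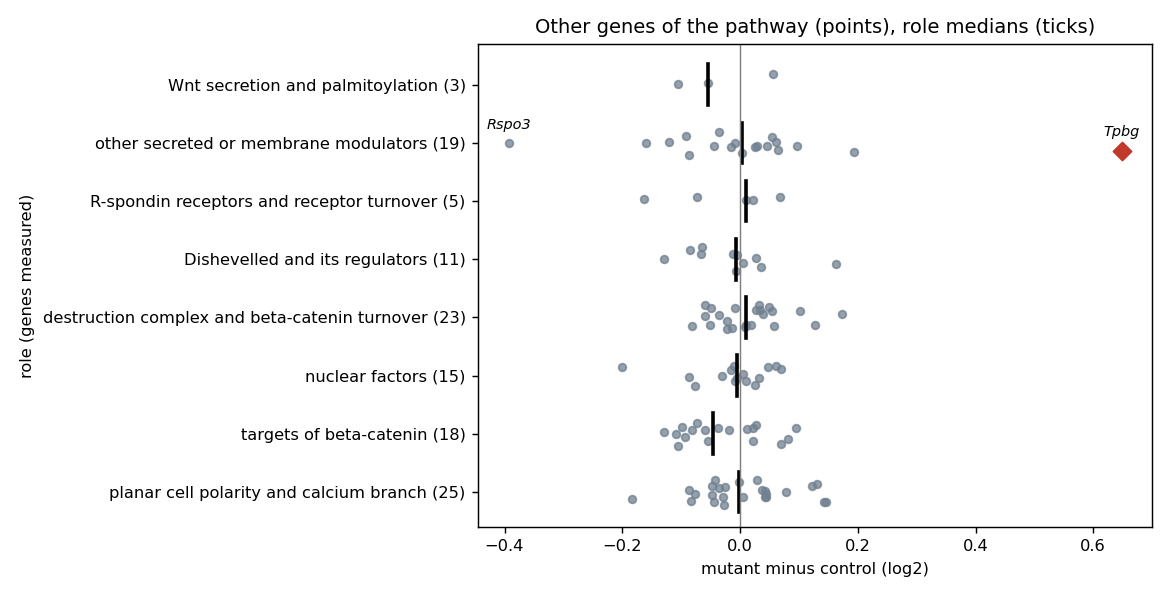
Mutant minus control difference in log2 (x axis) for the 114 other pathway genes by role (y axis, genes measured in parentheses), each point a gene and each tick a role median; 5 genes stand in 2 roles. Tpbg, the red diamond at 0.65, is the only gene past the threshold, and Rspo3 at -0.39 is the lowest. The lists were chosen with the Tpbg call known.

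Differences of the 45 genes were followed over 22 alternatives of scaling, filtering, model and arrays. In limma 0 of the 45 were called in any of them, and the smallest adjusted p was 0.499, for Dkk3 with the replicate number as a block. Dkk1 had an unadjusted p under 0.05 in all 21 alternatives that kept it, Dkk3 in 21 of 22, Fzd10os in 17 of 21, Sfrp4 in 8 of 20 and Frzb in 5 of 22. The alternative without such a p for Dkk3 left out the mutant arrays with high Xist (0.27 ± 0.13, SE). The sign of the difference was kept in every alternative by 23 genes, among them all 11 named ones. It turned in at least 1 alternative for 22 genes, whose differences as deposited were at most 0.081 in size. The named genes were chosen by p or by lack of overlap on these same arrays. Their kept signs and small p in refits of those arrays are thus no separate support.

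**Figure D4:**
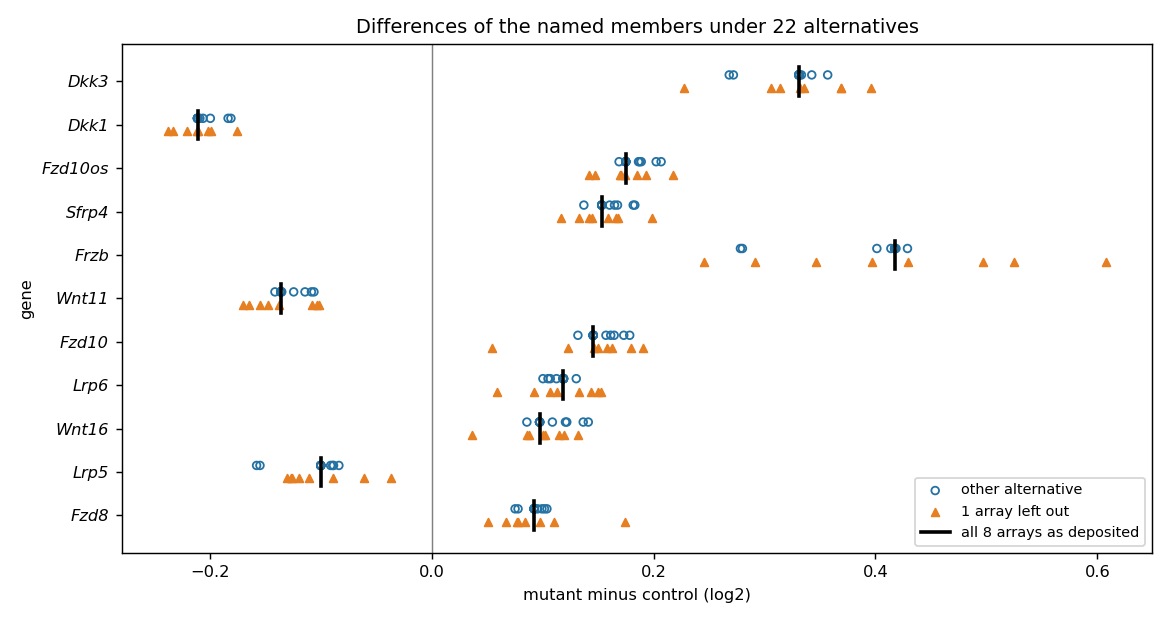
Mutant minus control difference in log2 (x axis) of the 11 named genes (y axis) as deposited (black tick), with 1 array left out (triangles) and under the other alternatives (circles). No point crosses 0, and Frzb ranges most, from 0.25 to 0.61. The genes were chosen on the same arrays, so that the kept signs are no separate support.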

How the data were processed

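RNA of layers II-IV, laser-microdissected at postnatal day 5 from 4 Bcl6 mutant and 4 Bcl6 control pups, was measured on Affymetrix arrays of the type Mouse Gene 1.0 ST, with BRB-ArrayTools for the analysis, per the series design text. The log2 values were used as the authors deposited them. The log2 scale was read from the values themselves (0.74 to 13.63). How background, arrays and probe sets were treated before deposit is not stated by the labels.

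Of 35556 probe sets, 21789 named a single gene in the platform annotation (1621 named several and were left out), and symbols were updated by gene identifier for 21698. Each gene was represented by its probe set of highest mean, giving 19938 genes, with no filter on level. limma 3.58.1 in R 4.3.3 fitted genotype across all of them, with Benjamini-Hochberg adjustment over all of them and a threshold of 0.05. The fit was tested on simulated data. The number of arrays limits the precision, and each array is 1 pup.

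Genes with values on every array are those with an unadjusted p under 0.05, those whose groups did not overlap and the 2 of smallest p in each family. Other pathway genes were named if at an unadjusted p under 0.05 or of smallest p in their role. The members, the pathway lists and the marker lists were chosen with earlier results of these data known, the call of Tpbg included. Alternatives covered scaling, filters on level, the prior, array weights, the replicate block, probe set choice, a two-sample test with no moderation, Y-linked level, arrays with high Xist and each array left out.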

Additional observations from a re-analysis of the deposited data

Results flagged for a closer look

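In each gene's group of 4 arrays, an array was singled out when its gap to the nearest other array took up more of the group's range than Dixon's 95% critical value allows. Of 112 groups tested, 90 of them of Wnt ligands, receptors and inhibitors, 5 were singled out, 3 among those 90. Chance singles out about 1 in 20 groups.

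Wnt9a, a Wnt ligand, read 4.65 in mutant replicate 1, with 5.15 to 5.17 in the other 3 mutants. Wnt9b, another ligand, read 5.42 in control replicate 3, with 5.68 to 5.69 in the other 3 controls. Fzd5, a Frizzled receptor, read 4.99 in control replicate 2, with 5.09 to 5.10 in the other 3 controls. Draxin, the secreted axon repellent, read 7.26 in control replicate 3, with 7.43 to 7.46 in the other 3 controls. Nkd1, which binds Dishevelled, read 7.21 in mutant replicate 2, with 7.08 to 7.10 in the other 3 mutants.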

How the results depend on the processing

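Over 22 alternatives, limma or the test with no moderation called 0 of the 45 genes (smallest adjusted p from 0.499 to 1.000), and no difference of a named gene changed sign. The named genes were chosen on the same arrays, so that their kept signs are no separate support. With genes at or above the median level only, 14 of the 45 were tested and their median difference was 0.069. The median over all genes of that level was not computed. Of the 14, 1 had an unadjusted p under 0.05 (3.71% of all genes tested there) and 1 had groups that did not overlap (2.52%). Without the 2 mutant arrays with high Xist, 7 of the 45 did not overlap (12.3% of all genes), and 3 pathway genes had an unadjusted p under 0.05 (4.56% of all genes). With the Y-linked level as a covariate 3 pathway genes did (4.58% of all genes). Under both, and in the test with no moderation, 0 pathway genes were called, where 2, 4 and 0 of all 19938 genes were called. With 0 genes called at all, the test with no moderation could give no other count. With 1 array left out, 2 to 4 of the 45 had an unadjusted p under 0.05 (4.37% to 5.29% of all genes). In the same fits 3 to 5 of the 45 did not overlap (5.03% to 5.45% of all genes), and their median difference was -0.012 to 0.027. Among the pathway genes 2 to 8 had an unadjusted p under 0.05 and 0 to 1 were called, beside 3 to 13 of all genes called. The causes were not tested.

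With the replicate number as a block, 4 of the 45 had an unadjusted p under 0.05 (5.38% of all genes). In that limma fit 0 of the 45 and 0 pathway genes were called (Tpbg, adjusted p = 0.125), beside 5 of all genes. Arrays of the same number shared little beyond the group means (correlations of -0.012, 0.029, 0.040 and 0.159, and 2 of 4 matched their own number best). Whether pups of the same number were paired cannot be told from these correlations, and the main fit left the number out.

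There are 4 arrays per group and no detection calls, and 31 of the 45 genes lie below the median level.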
